A study of Mus musculus with 8 samples.

Results

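Igfbp4, Atxn1, Celsr1 and Anks1 are 4 genes whose RNA was higher in mouse thymocytes labelled as lacking Bcl6 than in their controls, both in sorted precursors and after stimulation in culture. They are 4 of 13073 genes with a value in the series and 4 of 11725 listed in both systems. The genes were chosen by their symbols and by measured values, since the choice used the difference between KO and WT libraries in each system. Every value of that difference given for these genes is therefore a description and carries no test.

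The proteins act in separate pathways. Igfbp4 encodes a secreted binding protein that holds insulin-like growth factors (IGFs) and releases them when it is cut by the protease encoded by Pappa. Atxn1 encodes ataxin-1, a nuclear protein that works in a complex with Capicua (Cic), a repressor of genes induced by receptor signalling. Celsr1 encodes a large adhesion receptor of the cadherin superfamily, a core component of planar cell polarity, by which cells of a sheet align with each other. Anks1 (also called Anks1a) encodes an adaptor with ankyrin repeats, SAM domains and a phosphotyrosine-binding domain that binds Eph receptor tyrosine kinases. Bcl6 encodes a zinc-finger repressor, and thymocytes that bind self-ligands strongly can be diverted to the precursors of intraepithelial lymphocytes that this study is about.

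RNA was sequenced from 8 thymus libraries, 2 in each of 4 groups, and every group carried loxP-flanked Bcl6 (Bcl6fl/fl). The in vivo KO libraries came from Bcl6fl/fl Cd4cre mice and the in vivo WT libraries from Bcl6fl/fl mice without Cre, both as CD4-CD8-CD5+TCRb+ thymocytes that the labels call agonist-p. The in vitro KO libraries (Bcl6fl/fl Cd4cre) and in vitro WT libraries (Bcl6fl/fl) came from double-positive thymocytes. These had been stimulated for 24 h with plate-bound antibodies against CD3 and CD28, each at 8 µg/ml, and re-sorted as double-negative cells. Cd4-driven Cre acts from the double-positive stage, so cells that never pass it keep Bcl6. In vivo libraries were made by BGI Genomics and in vitro libraries by Novogene, so system and sequencing provider cannot be told apart. Ages are not given. The labels leave unsaid whether the 2 libraries of a group are from different mice, and each p-value thus reflects library-to-library spread that may be technical.

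Total counts ranged from 14754440 to 23975636 per library. Of 12 T cell markers, 11 had a value, and their summed level was between 1153 and 1548 FPKM in every library. The sums overlapped between the in vivo groups. In vitro they ran from 1470 to 1548 FPKM in the libraries labelled KO, against 1311 to 1444 FPKM in those labelled WT, without overlap. FPKM is a level scaled for gene length and library depth. The targeted gene went against its label in vitro: Bcl6 stood at 64.6 and 61.0 FPKM in the libraries labelled KO, against 24.9 and 21.9 FPKM in those labelled WT. In vivo it stood at 8.81 and 14.4 FPKM in the libraries labelled KO, against 11.5 and 13.9 FPKM in those labelled WT. A count over the whole gene cannot separate deleted exons from kept ones. Groups are therefore named below by their labels, and each direction is that of the libraries labelled KO against those labelled WT.

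Igfbp4 and Anks1 have a promoter entry in the RefSeq table used here (build GRCm38.p6), and the 250 bases before each start site are printed to show how the sequences before the start sites of these genes differ. The Igfbp4 window is chr11:99040994-99041243 and the Anks1 window is chr17:27909056-27909305, both on the plus strand, 5′ to 3′. Capitals mark the matches, on either strand, to the TATA box TATAAA, the GC box GGGCGG, the cyclic AMP response core TGACG and the EGR motif GCGNGGGCG.
Igfbp4: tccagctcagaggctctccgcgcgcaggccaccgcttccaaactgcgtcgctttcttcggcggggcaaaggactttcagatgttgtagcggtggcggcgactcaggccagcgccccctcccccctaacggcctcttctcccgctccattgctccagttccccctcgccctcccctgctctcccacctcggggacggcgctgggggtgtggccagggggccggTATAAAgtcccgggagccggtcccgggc
Anks1: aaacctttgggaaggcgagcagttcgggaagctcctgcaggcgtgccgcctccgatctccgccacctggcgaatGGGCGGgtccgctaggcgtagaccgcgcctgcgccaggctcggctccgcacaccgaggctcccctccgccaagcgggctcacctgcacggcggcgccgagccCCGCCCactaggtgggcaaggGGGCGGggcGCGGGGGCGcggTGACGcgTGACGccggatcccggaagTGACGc
The Igfbp4 window holds TATAAA 28 bases before the start site, a TATA box found in 12.4% of 32851 promoter windows of this length. The Anks1 window holds none. It has instead 3 matches to the GC box GGGCGG (32.7% of windows have at least 1), the CCGCCC run being a match on the other strand. It also has 3 matches to the cyclic AMP response core (17.8% of windows) and 1 to the EGR motif (4.70%). Both windows were rich in G and C, at 69.2% for Igfbp4 and 74% for Anks1, against a median of 52.4% over all windows. Neither window matched TTCCTNGAA, a core of the site BCL6 binds (1.31% of windows), nor TTCNNNGAA, which contains it (7.02%). The E-box CACGTG, the AP-1 site TGANTCA and the NR4A site AAAGGTCA were also without a match in both windows (6.02%, 6.75% and 1.34% of windows hold them). The KLF core CACCC had 1 match, in Igfbp4, and 52.0% of windows hold one. These letters were searched with the sequences in view, and no match in a window says nothing of binding elsewhere.

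Igfbp4, the IGF-binding protein gene on chromosome 11 (99041244 to 99054392, plus strand, mm10), spanned the widest range of the 4. In vivo it had 62.0 and 54.2 FPKM in the libraries labelled KO, against 22.8 and 21.0 FPKM in those labelled WT. In vitro it had 2.09 and 1.87 FPKM under the KO label, against 0.0283 and 0.0554 FPKM under the WT label. In both systems both libraries labelled KO lay above both labelled WT, and the in vitro level was far below the in vivo level under either label. Among the genes of a library, ordered by FPKM, Igfbp4 stood between the 94.1 and 95.2 percentile in vivo under the KO label and between 80.2 and 81.8 under the WT label. In vitro it stood between 27.3 and 28.6 under the KO label and between 1.06 and 2.41 under the WT label. A group of bulk libraries does not show whether more cells held the RNA or each cell held more.

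The in vitro WT value of Igfbp4 rests on very few reads. Counts were 164 and 179 in the libraries labelled KO, against 3 and 4 in those labelled WT. Summed and scaled for depth, the ratio of KO to WT counts was 51.1, with an exact 95% binomial interval of 24.5 to 128 that covers counting error only. The fitted log2 fold change was 5.63 (SE 0.34), the second largest among 9658 genes tested in vitro, and it depends on how so few reads are treated. In vivo the counts were ample, at 4183 and 3833 under the KO label and 1686 and 1490 under the WT label. There the log2 fold change was 1.40 (SE 0.11), a ratio of 2.63 in summed counts (2.53 to 2.75).

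Atxn1, which encodes the Capicua partner ataxin-1 on chromosome 13 (45549755 to 45965008, minus strand), was a low-level gene throughout. It had 2.78 and 2.92 FPKM in the in vivo libraries labelled KO, against 1.76 and 1.55 FPKM in those labelled WT. In vitro it had 1.54 and 1.49 FPKM under the KO label, against 0.314 and 0.510 FPKM under the WT label. The groups did not overlap in either system. The in vitro counts of 380 and 451 under the KO label, against 105 and 116 under the WT label, give a ratio of 3.92 (3.38 to 4.57). The log2 fold change was 0.78 (SE 0.12) in vivo and 1.94 (SE 0.19) in vitro. The in vitro WT libraries differed more from each other than any other pair of this gene. Scaled within the system, replicate 1 had 0.612 times the CPM (reads scaled for depth but not for gene length) of replicate 2. In vitro, Igfbp4 and Atxn1 passed the filter on low values (2 or more libraries of the system at 1 FPKM or above) only through the libraries labelled KO.

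Celsr1, the polarity receptor gene on chromosome 15 (85898929 to 86033777, minus strand), had 12.04 and 11.72 FPKM in vivo under the KO label, against 7.56 and 7.30 FPKM under the WT label. In vitro it had 3.79 and 3.97 FPKM under the KO label, against 2.61 and 2.54 FPKM under the WT label. Its replicates were close, and its difference was of similar size in the 2 systems, with log2 fold changes of 0.67 (SE 0.09) in vivo and 0.62 (SE 0.09) in vitro. Anks1, the Eph receptor adaptor gene on chromosome 17 (27909306 to 28062775, plus strand), had 11.6 and 12.2 FPKM in vivo under the KO label, against 7.52 and 7.35 FPKM under the WT label. In vitro it had 7.60 and 8.37 FPKM under the KO label, against 6.353 and 5.995 FPKM under the WT label. Its log2 fold change was 0.67 (SE 0.09) in vivo and 0.40 (SE 0.09) in vitro, the smallest of the 4 in vitro. The raw Anks1 counts overlapped in vitro, at 1366 and 1842 under the KO label and 1546 and 993 under the WT label, and separated only once depth was scaled. Whether the fold changes of a gene differ between systems was not tested.

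**Figure D1:**
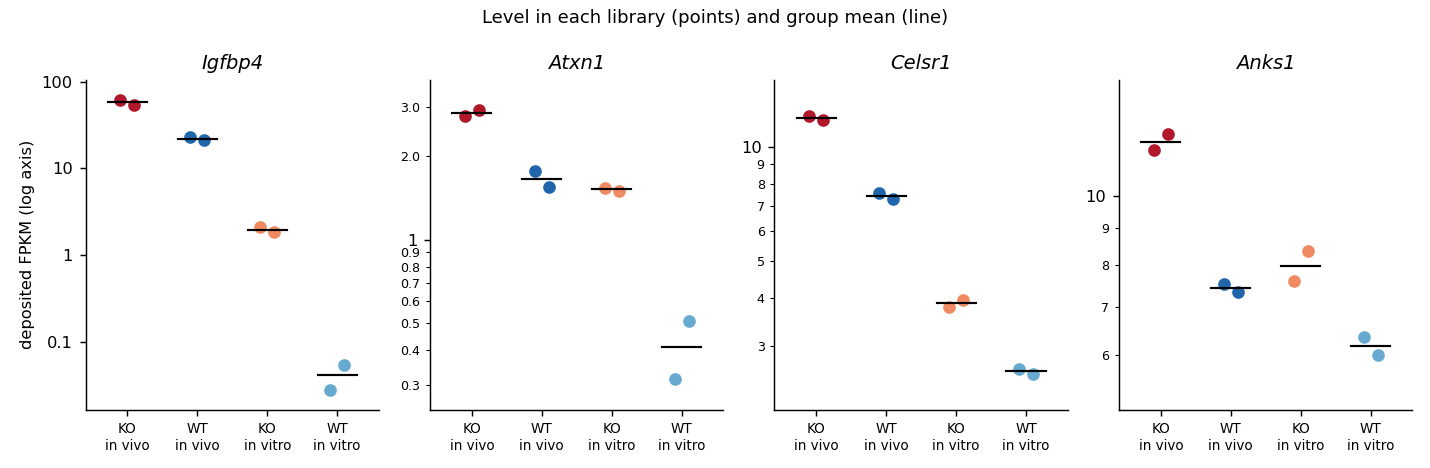
Deposited FPKM of Igfbp4, Atxn1, Celsr1 and Anks1 on a log axis of its own range for each gene, with 1 point per library and a line at the mean of the 2 libraries of each group. KO points lie above WT points within each system for all 4 genes, and Igfbp4 drops to 0.0283 and 0.0554 FPKM in the in vitro WT libraries.

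Levels between genes can be set side by side on the FPKM scale, which is per length. In vivo under the KO label Igfbp4 averaged 58.1 ± 5.5 FPKM, Celsr1 11.9 ± 0.2, Anks1 11.9 ± 0.4 and Atxn1 2.85 ± 0.10 FPKM (SD, n = 2 each). In vitro under the WT label Anks1 was the highest at 6.17 ± 0.25 FPKM, followed by Celsr1 at 2.58 ± 0.05, Atxn1 at 0.412 ± 0.138 and Igfbp4 at 0.0419 ± 0.0192 FPKM (SD, n = 2 each). Igfbp4 was thus the most abundant of the 4 in vivo and the least abundant in the in vitro WT libraries. The gene models behind the files were 3.15, 2.63 and 2.30 times as long for Atxn1, Celsr1 and Anks1 as for Igfbp4. Atxn1 overlaps Gmpr and Anks1 overlaps Taf11 on the opposite strand, and the strand setting of the counting is not given, so reads in the overlaps are uncertain. Gmpr had at most 45 reads in a library. Taf11 had 377 and 406 reads in vivo under the KO label, against 468 and 386 under the WT label. In vitro it had 567 and 703 under the KO label, against 901 and 640 under the WT label.

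Of 10227 genes tested in vivo, 29 were called higher under the KO label (0.284%), and 1940 of 9658 in vitro (20.1%), at an adjusted p under 0.05 in edgeR's quasi-likelihood test. Among 9364 genes tested in both systems, 12 were called higher in both (0.128%), and the 4 members are among them by choice. Those 12 were 92.3% of the 13 such genes called in vivo and 0.629% of the 1908 called in vitro. The other 8 were Syt13, Rexo5, Etv5, Il10ra, Ccr9, Tiam1, Mpp4 and Ptgfrn, named after their values were seen. The adjusted p of these contrasts entered the choice, so they only place the threshold and are no evidence for the members. Atxn1 lay just inside it, the larger of its adjusted p in the 2 systems being 0.0471. Just outside were Cd101 and Gata3, each at 0.0589, and Thy1, Hid1 and Ada, each at 0.0678. Because Bcl6 went against its label in vitro, the turned direction was counted as well, a step chosen after seeing the data. Were the in vitro labels exchanged, the 4 members would be higher under KO in vivo and lower in vitro. Under the labels as given, 0 of 9364 genes (0%) were called higher in vivo and lower in vitro by edgeR. Only the 13 genes called higher in vivo could enter that count, and 12 of them were called higher in vitro, so the 0 says little. At an unadjusted p under 0.05 there were 61, and by adjusted p 7 with DESeq2 and 0 with limma. By adjusted p, genes called higher in both systems numbered 84 with DESeq2 and 7 with limma. Whether the labels were exchanged was not tested. Igfbp4 had the largest in vitro fold change of the 12, while in vivo Syt13 was above it, at a log2 fold change of 1.95 (SE 0.19). In vivo Igfbp4 ranked the tenth and Atxn1, Celsr1 and Anks1 the last 3 by fold change among the 29 genes called higher.

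Membership depended on single in vivo libraries. Without WT replicate 2 in vivo, 0 of the 4 genes and 0 genes in all were called higher in both systems by edgeR, with 258 at an unadjusted p under 0.05. Without KO replicate 1 in vivo, 1 gene in all was called, Igfbp4. Without KO replicate 2 in vivo, 47 genes were called, and Igfbp4 was again the only member among them. Without WT replicate 1 in vivo, 15 were called, with all 4 members. The log2 fold changes themselves moved little: over these fits they ranged from 1.30 to 1.51 for Igfbp4, 0.69 to 0.88 for Atxn1, 0.64 to 0.70 for Celsr1 and 0.64 to 0.70 for Anks1. Leaving out an in vitro library kept all 4 members called in both systems.

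**Figure D2:**
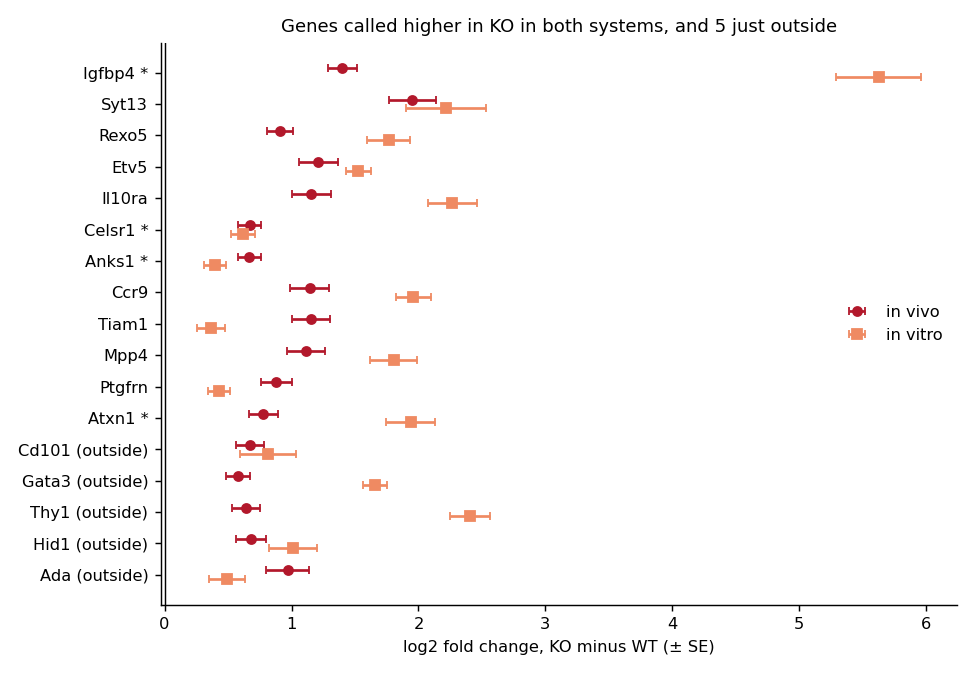
Log2 fold change, KO minus WT, with its SE for the 12 genes called higher in both systems (the 4 members marked with an asterisk) and the 5 genes just outside, in vivo as circles and in vitro as squares. Igfbp4 lies at 1.40 in vivo and 5.63 in vitro, apart from all others in vitro, while Celsr1 and Anks1 lie under 0.70 in both.

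Transcripts listed as markers of B cells and myeloid cells also differed between the in vivo groups. Whether other cells or the sorted cells themselves held them was not tested. All 6 B cell markers had a value, and they summed to between 18.3 and 25.8 FPKM under the KO label, against 4.37 to 14.03 FPKM under the WT label. All 6 myeloid markers had a value, and they summed to between 169 and 316 FPKM under the KO label, against 80.6 to 144 FPKM under the WT label. Fcer1g made up most of the myeloid sum, at 187 and 146 FPKM under the KO label, against 110 and 64.5 FPKM under the WT label. Both sums were higher under the KO label without overlap. All 6 B cell markers were apart one by one, but only Fcer1g and Itgam of the myeloid ones. How many of all genes lie apart in this way in vivo was not counted, so these counts are a description. Without Fcer1g, an omission also chosen after seeing the data, the myeloid sums overlapped, at 129 and 22.9 FPKM under the KO label, against 34.2 and 16.1 FPKM under the WT label. KO replicate 1 alone held 109 FPKM of Lyz2, against 15.7 FPKM in KO replicate 2 and 25.6 and 10.7 FPKM under the WT label. The part of these transcripts in the in vivo values of Igfbp4, Atxn1, Celsr1 and Anks1 was not tested. In vitro, 2 of 6 B cell markers had a value and summed to between 5.06 and 5.76 FPKM under the KO label, against 2.85 to 2.95 FPKM under the WT label. There 3 of 6 myeloid markers had a value and summed to between 4.42 and 4.58 FPKM under the KO label, against 3.98 to 4.23 FPKM under the WT label. The in vitro sum of T cell markers was higher under the KO label as well. Endothelial markers, 2 of 5 with a value and nearly all Pecam1, summed to 21.4 to 21.5 FPKM under the KO label, against 10.9 to 12.96 FPKM under the WT label in vitro. In vitro, 2 of 7 stromal markers summed to between 0.981 and 1.17 FPKM under the KO label, against 0.495 to 0.540 FPKM under the WT label. In vivo, 5 of 7 stromal markers summed to at most 3.20 FPKM in any library. Of 7 thymic epithelial markers only Epcam had a value in vivo, at 2.70 to 3.37 FPKM under the KO label, against 4.71 to 5.32 FPKM under the WT label. In vitro, 4 of 7 epithelial markers summed to between 7.79 and 9.02 FPKM under the KO label, against 5.33 to 5.61 FPKM under the WT label. Erythroid sums overlapped between the groups in both systems, as did endothelial sums in vivo. The part of these differences in the members' values was not tested.

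The difference between systems did not choose the genes and was tested over all 8 libraries with edgeR, although the same libraries entered the choice. Under the WT label, all 4 genes were higher in vivo than in vitro, where 34.6% of 10276 genes were called higher. Igfbp4 averaged 98.6 ± 8.0 CPM in vivo and 0.194 ± 0.088 CPM in vitro (SD, n = 2 each), with a log2 difference of 9.04 (SE 0.22, adjusted p = 1.63e-09 in edgeR). Since the in vitro side holds 7 reads, the ratio of summed counts was 540, with an exact 95% interval of 262 to 1345. Atxn1 averaged 23.5 ± 2.7 CPM in vivo and 6.03 ± 2.01 CPM in vitro, with a log2 difference of 2.01 (SE 0.19, edgeR adjusted p = 6.74e-06). Celsr1 averaged 88.0 ± 4.0 CPM in vivo and 31.5 ± 0.7 CPM in vitro, with a log2 difference of 1.51 (SE 0.09, edgeR adjusted p = 1.63e-07). Both lay well outside the spread of their replicates. Anks1 averaged 76.8 ± 2.9 CPM in vivo and 65.8 ± 2.9 CPM in vitro, a log2 difference of 0.25 (SE 0.09, edgeR adjusted p = 0.0307). The Anks1 call was lost without WT replicate 2 in vitro (0.20, adjusted p = 0.159) and without WT replicate 1 in vivo (0.21, adjusted p = 0.106), and over all alternatives its adjusted p ran from 0.00935 to 0.159.

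Under the KO label, where 31.4% of genes were called higher in vivo than in vitro, the same 4 genes were all called higher. Igfbp4 averaged 264 ± 25 CPM in vivo and 9.18 ± 0.76 CPM in vitro (SD, n = 2 each), with a log2 difference of 4.86 (SE 0.13, edgeR adjusted p = 3.08e-09). Atxn1 averaged 40.9 ± 1.5 CPM in vivo and 22.1 ± 0.5 CPM in vitro, with a log2 difference of 0.90 (SE 0.17, edgeR adjusted p = 0.00113). Celsr1 averaged 142 ± 3 CPM in vivo and 47.4 ± 1.5 CPM in vitro, with a log2 difference of 1.60 (SE 0.09, edgeR adjusted p = 1.49e-07). Anks1 averaged 124 ± 5 CPM in vivo and 84.9 ± 5.7 CPM in vitro, with a log2 difference of 0.56 (SE 0.09, edgeR adjusted p = 0.000319). Sort, culture, stimulation and provider all differ between the systems and cannot be told apart.

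On the CPM scale, ordered from low to high, Igfbp4, Atxn1 and Celsr1 ran from WT in vitro through KO in vitro and WT in vivo to KO in vivo. Neighbouring groups in this order did not overlap, except that Atxn1 had 21.8 to 22.5 CPM in vitro under the KO label, within the 21.6 to 25.3 CPM in vivo under the WT label. Anks1 had a different order, WT in vitro, WT in vivo, KO in vitro and KO in vivo. Its middle groups lay close together, at 74.7 to 78.9 CPM in vivo under the WT label and 80.9 to 88.9 CPM in vitro under the KO label.

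Genes of the members' pathways, from lists that leave the 4 members out, were set beside all tested genes. Of all tested genes, 0.284% were called higher in vivo and 20.1% in vitro. In either direction, 1.1% were called different in vivo and 37.8% in vitro. The median log2 fold change of all tested genes was near 0 in both systems, at -0.0036 in vivo and -0.0028 in vitro. Of the IGF axis, 7 genes were tested in vivo and 5 in vitro. Higher calls numbered 0 in vivo (0 also by DESeq2 and at an unadjusted p under 0.05 in edgeR) and 3 in vitro, with medians of -0.09 in vivo and 0.31 in vitro. Lower calls numbered 1 in vivo (2 at an unadjusted p under 0.05, 2 by DESeq2 and 0 by limma). In vitro they numbered 0 (1 at an unadjusted p under 0.05). The ligand gene Igf2 did not exceed 0.177 FPKM in any in vivo library. It was chosen after its values were seen, and the ligand gene Igf1 and the protease gene Pappa were not analysed here. Among receptors, Insr, the insulin receptor gene, was higher in vitro under the KO label, at 5.71 and 5.28 FPKM against 3.84 and 4.20 FPKM (log2 fold change 0.48, SE 0.09, edgeR adjusted p = 0.00229). Igf1r, the signalling receptor for IGFs, was not called in either system, with log2 fold changes of -0.65 (SE 0.16) in vivo and 0.24 (SE 0.10) in vitro. Igf2r, which clears IGF2 from the cell surface, was higher in vitro (0.31, SE 0.08, edgeR adjusted p = 0.0109) and had -0.43 (SE 0.19) in vivo without a call. The signalling adaptor gene Irs2 was lower in vivo under the KO label, at 4.08 and 4.39 FPKM against 6.94 and 6.83 FPKM (-0.71, SE 0.11, edgeR adjusted p = 0.0471), and higher in vitro (0.43, SE 0.12, edgeR adjusted p = 0.0143). The in vivo Irs2 call was lost in each of the 4 fits that left out a library (adjusted p 0.0762 to 0.228). Without WT replicate 2, the in vitro calls of Irs2 and Igf2r were lost as well, with adjusted p of 0.0858 and 0.0581. Of the other IGF-binding protein genes with a value, the highest was Igfbp7, at 1.57 and 1.03 FPKM in vivo under the KO label and 0.890 and 1.70 FPKM under the WT label. In vitro the highest was Igfbp2, which did not pass the filter and went against Igfbp4, lower under the KO label without overlap. It had 0.183 and 0.324 FPKM (6 and 13 reads) under the KO label, against 0.902 and 0.928 FPKM (40 and 28 reads) under the WT label.

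Of the ataxin-1 and Capicua list, 14 genes were tested in each system. In vivo 1 was called higher and 0 lower (2 lower at an unadjusted p under 0.05 and 2 by DESeq2), and in vitro 4 were higher and 4 lower. Without WT replicate 1 in vitro 2 were higher and 2 lower, and over the 4 fits without a library the counts ran from 2 to 4 higher and from 2 to 5 lower. The medians were 0.07 in vivo and -0.05 in vitro. Etv5, an ETS factor gene that Capicua represses in mammals, was called higher in both systems. It had 16.8 and 13.2 FPKM in vivo under the KO label, against 6.80 and 6.06 FPKM under the WT label (log2 fold change 1.21, SE 0.15, edgeR adjusted p = 0.0388). In vitro it had 12.9 and 12.4 FPKM under the KO label, against 4.37 and 4.59 FPKM under the WT label (1.53, SE 0.10, edgeR adjusted p = 1.51e-06). Its in vivo call was lost without WT replicate 1, WT replicate 2 or KO replicate 1, with adjusted p of up to 0.120. The feedback genes of the list did not share 1 direction. Spred2, an inhibitor of Ras signalling named after its values were seen, was higher in vitro, at 16.2 and 16.3 FPKM under the KO label against 12.9 and 13.4 FPKM under the WT label (0.33, edgeR adjusted p = 0.0106). That call was lost without WT replicate 1 (adjusted p = 0.0907). Dusp4, a MAP kinase phosphatase gene, was lower in vitro (-0.97, SE 0.15, edgeR adjusted p = 0.000456) and had -1.04 (SE 0.19) in vivo without a call. Spry4 was lower in vitro (-0.64, SE 0.21, edgeR adjusted p = 0.0336) and had -1.21 (SE 0.22) in vivo without a call. The Spry4 call was lost without WT replicate 1 or KO replicate 1 in vitro, with adjusted p of up to 0.197. Spred1, a paralog of Spred2, was lower in vitro (-0.45, SE 0.10, edgeR adjusted p = 0.00388). Rbm17, the gene of a splicing factor that binds ataxin-1, was lower in vitro as well (-0.32, SE 0.08, edgeR adjusted p = 0.00855), a call lost without WT replicate 1 (adjusted p = 0.0786). The close paralog Atxn1l was higher in vitro (0.28, SE 0.09, edgeR adjusted p = 0.0277), a call lost without WT replicate 1 or KO replicate 2 (adjusted p up to 0.227). Cic itself was higher in vitro (0.35, SE 0.08, edgeR adjusted p = 0.00704) and had -0.04 (SE 0.11) in vivo.

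Of the planar cell polarity list, 10 genes were tested in each system, with medians of -0.04 in vivo and 0.26 in vitro. In vivo 0 were called by edgeR, with 2 higher at an unadjusted p under 0.05 and 0 by DESeq2 or limma. In vitro 4 were called higher, a count that ran from 1 to 4 when single libraries were left out and fell to 1 by DESeq2. Scrib, a scaffold of cell polarity, stayed called in all 4 of those fits, at 57.0 and 61.0 FPKM under the KO label against 45.1 and 45.4 FPKM under the WT label (0.41, SE 0.09, edgeR adjusted p = 0.00321). Vangl2, a core polarity membrane protein gene, was called with the main settings (0.28, SE 0.09, edgeR adjusted p = 0.0358) and in none of the 4 fits without a library (adjusted p 0.0532 to 0.227). Ptk7 and Dvl2 were each called in 1 of those 4, losing the call without WT replicate 1, WT replicate 2 or KO replicate 2 (adjusted p up to 0.184 for Ptk7 and 0.173 for Dvl2). The paralog Celsr2 was not called in either system, with log2 fold changes of -0.11 (SE 0.17) in vivo and 0.25 (SE 0.10) in vitro. Celsr3 did not exceed 0.0363 FPKM in any in vivo library.

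Of the Eph and ephrin list, which also holds the Anks paralogs, 6 genes were tested in vivo and 5 in vitro, with medians of -0.13 in vivo and 0.00 in vitro. In vivo 0 were called by edgeR, with 0 at an unadjusted p under 0.05 and 0 by DESeq2 or limma. The 1 gene called in vitro was Ephb6, an Eph receptor gene without kinase activity that T cells express. It had 41.0 and 47.7 FPKM under the KO label, against 23.1 and 28.1 FPKM under the WT label (0.82, SE 0.11, edgeR adjusted p = 0.00021), and -0.12 (SE 0.26) in vivo. Anks3, the Anks paralog that was tested, had log2 fold changes of -0.05 (SE 0.10) in vivo and 0.00 (SE 0.09) in vitro. Anks6 had at most 0.513 FPKM in any library.

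A list of naive and mature T cell genes was set beside the members in the same way. All 11 tested genes of that list were called higher in vitro, with a median of 1.65, and 10 to 11 were called when single libraries were left out. Of its 12 genes tested in vivo, 0 were called by edgeR (3 higher at an unadjusted p under 0.05, 1 by DESeq2, 0 by limma), with a median of 0.14. Klf2, a factor that drives thymic egress genes, had 70.7 and 69.4 FPKM in vitro under the KO label, against 13.2 and 17.5 FPKM under the WT label. In vivo it had 115 and 134 FPKM under the KO label, against 149 and 143 FPKM under the WT label.

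**Figure D3:**
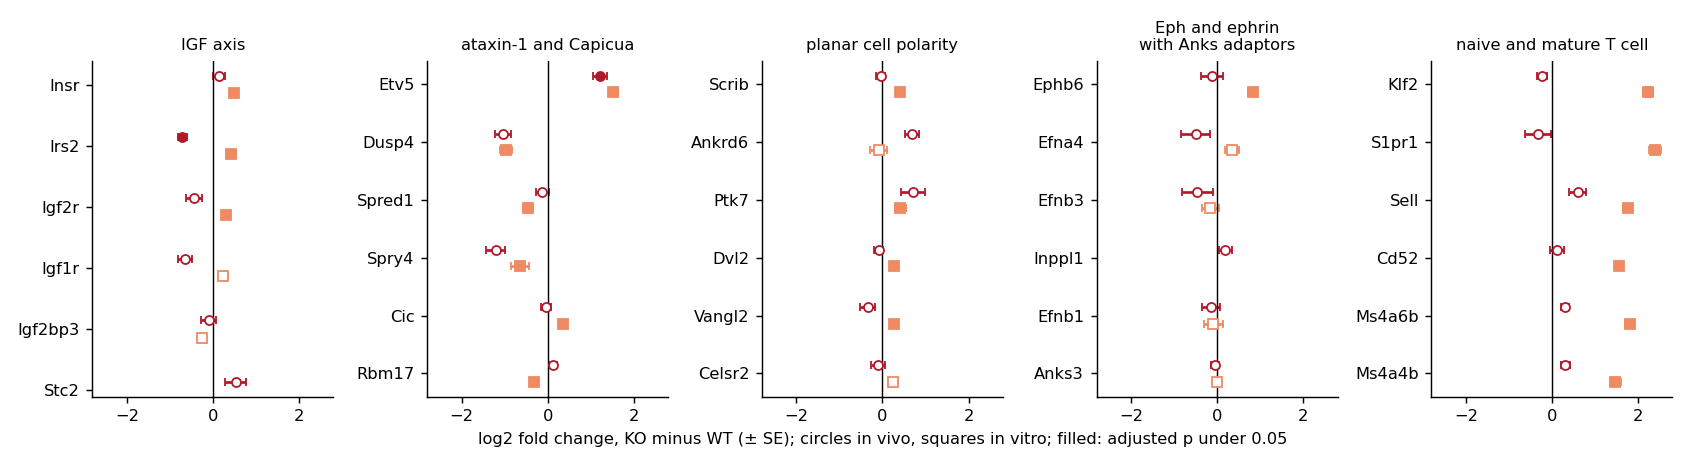
Log2 fold change, KO minus WT, with its SE for up to 6 tested genes with the smallest p in each of 5 lists, in vivo as circles and in vitro as squares, filled where the adjusted p is under 0.05. Etv5 is the 1 gene drawn that is filled and above 0 in both systems, and the naive and mature T cell genes lie between 1.47 and 2.40 in vitro.

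Genes beside the members on the chromosomes were measured to see whether the difference reached past each gene. Next to Igfbp4, Top2a, the DNA topoisomerase gene of dividing cells, lies 17055 bases away. It was called higher in vitro (log2 fold change 1.27, SE 0.17, edgeR adjusted p = 0.000193) and had 1.36 (SE 0.28) in vivo without a call. Top2a had 40.2 and 22.6 FPKM in vivo under the KO label, against 13.9 and 10.5 FPKM under the WT label, groups that did not overlap. Ccr7, a chemokine receptor gene of mature thymocytes 89804 bases away, was called higher in vitro (1.65, SE 0.16, edgeR adjusted p = 2.38e-05) and had 0.21 (SE 0.41) in vivo. Tns4, on the same side as Ccr7 and nearer, was tested in vivo and not called (0.27, SE 0.27). Near Atxn1, Mylip was called higher in vitro (0.71, SE 0.14, edgeR adjusted p = 0.00281) and had -0.04 (SE 0.13) in vivo. Rbm24, on the other side of Atxn1, had 0.65 (SE 0.21) in vivo without a call, at 2.31 and 2.15 FPKM under the KO label against 1.57 and 1.25 FPKM under the WT label, without overlap. In vitro Rbm24 did not pass the filter. It was also higher there without overlap, at 0.694 and 0.607 FPKM under the KO label against 0.406 and 0.140 FPKM under the WT label. Beside Celsr1, Trmu lies 1535 bases away and was not called in either system, with -0.01 (SE 0.14) in vivo and -0.15 (SE 0.11) in vitro. Its in vitro levels were lower under the KO label without overlap, at 5.40 and 5.95 FPKM against 6.75 and 6.08 FPKM. Gtse1, the next gene on that side, was not called either, with 1.11 (SE 0.32) in vivo and 0.52 (SE 0.21) in vitro. Its in vivo levels were 8.74 and 5.10 FPKM under the KO label, against 3.86 and 2.54 FPKM under the WT label, without overlap. On the other side, Gramd4 was called higher in vitro (0.50, SE 0.09, edgeR adjusted p = 0.00103) and had 0.07 (SE 0.11) in vivo. Cerk was called higher in vitro (0.40, SE 0.09, edgeR adjusted p = 0.00516) and had -0.38 (SE 0.09) in vivo without a call. Its in vivo levels were lower under the KO label without overlap, at 46.1 and 44.7 FPKM against 59.2 and 58.3 FPKM. Next to Anks1, Tcp11 lies 3970 bases away and did not pass the filter on low values in either system. In vitro it was higher under the KO label, at 0.719 and 0.995 FPKM against 0.434 and 0.478 FPKM. In vivo it was lower, at 0.375 and 0.472 FPKM under the KO label against 0.482 and 0.680 FPKM under the WT label. Its groups did not overlap in either system. The tested neighbours of Anks1, Uhrf1bp1 and Snrpc, were not called in either system. Uhrf1bp1 had 0.42 (SE 0.14) in vivo and -0.12 (SE 0.11) in vitro, and its groups overlapped in neither system. In vivo it had 2.22 and 2.06 FPKM under the KO label against 1.66 and 1.52 FPKM under the WT label. In vitro it was lower under the KO label, at 1.98 and 2.16 FPKM against 2.27 and 2.31 FPKM. Snrpc had 0.05 (SE 0.12) in vivo and -0.26 (SE 0.10) in vitro. Its in vitro levels were lower under the KO label without overlap, at 13.8 and 15.3 FPKM against 19.2 and 16.2 FPKM. How many of all tested genes have groups without overlap was not counted.

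The genes whose pattern was most like that of a member were taken by Pearson r of log2 CPM over the 8 libraries, among 9364 genes tested in both systems. These 8 points are 4 groups of 2 that share system and provider, so r is a description. Igfbp4 was most like Itpr3, a calcium release channel gene (r = 0.999), followed by Septin9, St6gal1, Arrb2 and Parp10. The likeness was in shape and not in size: Itpr3 had 38.2 and 40.2 FPKM in vivo under the KO label and 5.44 and 6.30 FPKM in vitro under the WT label, a far smaller span than that of Igfbp4. Atxn1 was most like Fam78a (r = 0.994), then Npc1, Slc9a9, Auh and Arhgap4. Celsr1 was most like Srgap2 (r = 0.996), then Rapgef2, Lgals9, Zmiz1 and Crip1. Anks1 was most like Ube2t, a ubiquitin-conjugating enzyme gene of DNA repair, at a lower r of 0.956, then Ehmt2, Gpsm2, Rras2 and Cenpl. Among the members, Igfbp4 and Celsr1 were the most alike (r = 0.961) and Igfbp4 and Anks1 the least (r = 0.763). On the log2 FPKM scale the top 5 shared 0 genes for Igfbp4, 2 for Atxn1, 3 for Celsr1 and all 5 for Anks1. By Spearman rho, 1 of the 5 stayed among the top 5 for Igfbp4, 1 for Atxn1, 0 for Celsr1 and 0 for Anks1.

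**Figure D4:**
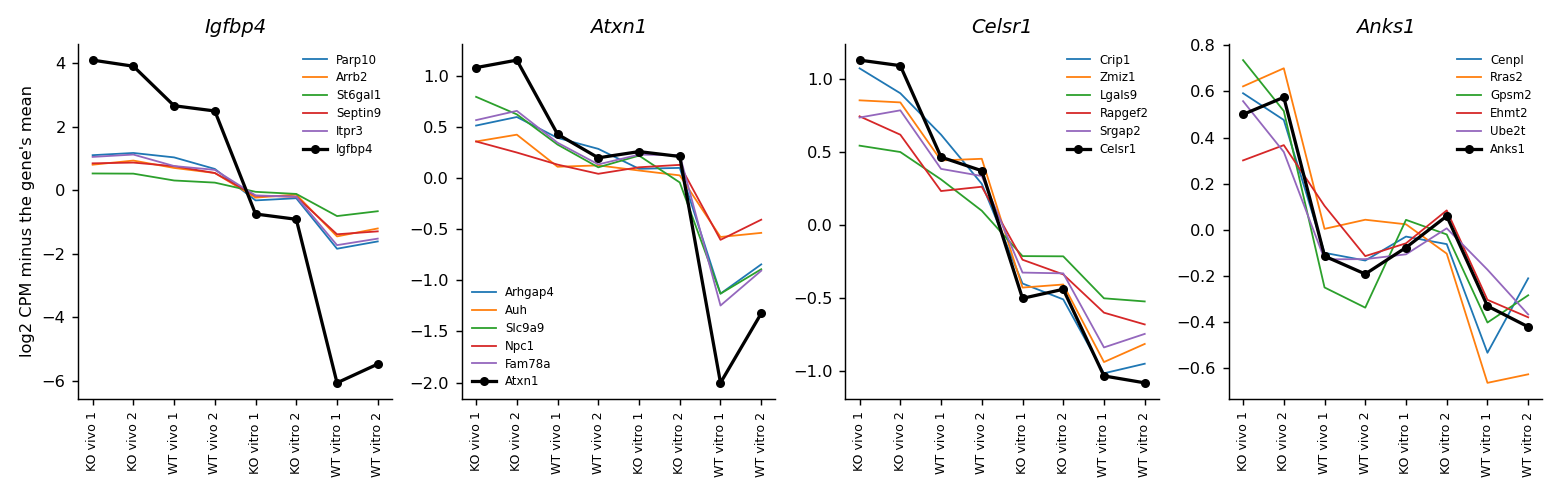
Log2 CPM minus each gene's mean in the 8 libraries for each member (black line with points) and the 5 genes most like it (coloured lines), in order KO in vivo, WT in vivo, KO in vitro and WT in vitro. Igfbp4 spans far more than its closest genes, while Anks1 and its closest genes are spread within about 1 unit of their means.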

How the data were processed

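RNA-seq tables of 8 libraries were analysed, 2 in each of 4 groups taken from the labels. Each table, deposited by the authors, holds a whole-number count and an FPKM value per gene. Tools listed without a role in the submitters' processing notes are DESeq2, RSEM, Subread, featureCounts, Bowtie2 and Trim Galore 0.4.4, with genome build mm10. For the annotation and strand setting, nothing is given in the sources used here. In its own system each gene kept in a table averaged 5 reads or more.

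The 4 members, the pathway lists and the tests were chosen with earlier results of these data known. Counts were tested with the quasi-likelihood test of edgeR 4.0.16 (R 4.3.3, TMM), two-sided, on the 4 libraries of a system, or on all 8 as group means for the difference between systems. A gene was tested where 2 or more of those libraries had 1 FPKM or above, and called where its Benjamini-Hochberg adjusted p over all tested genes was under 0.05. SE was taken as the size of the log2 fold change divided by the root of the F statistic. CPM used TMM scaling over 8 libraries, and log2 CPM a prior count of 2. The replicate ratio given for Atxn1 used scaling over the 4 libraries of its system. Ratios of summed counts carry exact 95% binomial intervals, which cover counting error only. Coordinates came from GENCODE genes of mm10.

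Named genes were the members, genes called higher in both systems and the 5 just outside, the 2 nearest protein-coding genes on each side, the 5 most alike, and up to 6 genes of each list with the smallest p plus close paralogs. Others were chosen after their values were seen. Total counts ranged from 14754440 to 23975636, and replicates differed beyond sampling noise, with a chi-square of 9.40 to 19.1 times its degrees of freedom. Tested on simulated data, the procedure recovered 82 of 100 changed 2-fold in vivo and 95 of 100 in vitro, and all 100 changed 4-fold in each. Beside these stood 17 false calls among the unchanged of 10227 genes in vivo and 11 among those of 9658 in vitro. Simulated libraries were drawn independently, so deviations shared by same-numbered libraries were not covered. The simulation thus does not show how far the in vivo calls hold. Alternatives used other scalings and filters, DESeq2 1.42.0, limma 3.58.1 on log2(FPKM + 1) and log2(FPKM + 0.1), all 8 libraries, a term for replicate number, and fits without 1 library, in which a group left with 1 library borrows the spread of the rest.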

Additional observations from a re-analysis of the deposited data

Results flagged for a closer look

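The genes below, each called in vitro by edgeR, moved in opposite directions in the 2 systems. Both libraries labelled KO lay above both labelled WT in one system and below them in the other. The difference between systems was not tested. Cerk, a neighbour of Celsr1, had a log2 fold change of -0.38 in vivo and 0.40 in vitro. Irs2, the insulin and IGF signalling adaptor gene, had -0.71 in vivo and 0.43 in vitro. Igf2r, the IGF2 clearance receptor gene, had -0.43 in vivo and 0.31 in vitro. Rbm17, which encodes a splicing factor that binds ataxin-1, had 0.12 in vivo and -0.32 in vitro. Klf2, the egress factor gene, had -0.24 in vivo and 2.23 in vitro. Of these, the in vivo change was called for Irs2 and for no other by edgeR. Igf1r and Uhrf1bp1, called in neither system, and the marker gene Epcam also lay apart in opposite directions. So did Usp7 of the ataxin-1 and Capicua list, and 2 genes that did not pass the filter on low values. These were Tcp11, a neighbour of Anks1, and Dchs1 of the planar cell polarity list. How many of all genes do so was not counted. Igfbp4, Atxn1, Celsr1 and Anks1 had no such opposite movement, which their choice fixes. With 2 libraries a group, no test of outlying samples was made.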

How the results depend on the processing

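The fold changes of Igfbp4, Atxn1, Celsr1 and Anks1 kept their sign under every alternative run, while counts of called genes in vivo did not hold. Genes called higher in vivo numbered 29, against 260 by DESeq2, 14 and 16 by limma with pseudocounts of 1 and 0.1, 266 with all 8 libraries in the fit, 607 with a replicate block, and 1 to 193 when single libraries were left out. Genes called lower in vivo numbered 84, against 245 by DESeq2, 54 by limma with a pseudocount of 1, 279 with all 8 libraries, 471 with a replicate block, and 6 to 124 without single libraries. Genes called higher in both systems numbered 12, against 23 without a filter, 19 with edgeR's own filter, 84 by DESeq2, 7 by limma with either pseudocount, 84 with all 8 libraries, 185 with a replicate block, and 0 to 47 without single libraries. Of the 4 genes, 4 stayed among them with DESeq2, the block and no filter, 3 with total count scaling or edgeR's own filter, and 1 with limma. In vitro, genes called lower numbered 1709, and 1108 to 1597 without single libraries. The Igfbp4 in vitro log2 fold change of 5.63 became 3.88 and 1.52 with limma pseudocounts of 0.1 and 1, which pull low values together. The Anks1 difference between systems under the WT label was lost without a filter (0.22, adjusted p = 0.0539), with edgeR's own filter (0.22, adjusted p = 0.0514), by DESeq2 (0.24, adjusted p = 0.0590) and with only the 4 libraries compared (0.25, adjusted p = 0.0611), and ran from 0.20 to 0.30 without single libraries. The causes of these changes were not tested. Nothing in the labels says that replicate numbers pair libraries. Deviations of same-numbered libraries correlated across genes at 0.459 in vivo and -0.305 in vitro. A crossed replicate block in vitro, chosen after seeing the data, called 2546 genes higher and 2451 lower, against 1940 and 1709. With 7 reads of Igfbp4 in the in vitro WT libraries, its in vitro ratio is known only within the interval given.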
